A study of Mus musculus with 4 samples.

Results

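The Hox genes of mouse testis were taken from the deposited count table as every symbol formed of Hoxa, Hoxb, Hoxc or Hoxd and a number, which gave 39 of the 22609 genes in the table. The rule that picks the members reads names and no measured value. Of these 39 genes, 29 passed the filter on low counts and were tested, 9 had counts but did not pass it, and Hoxc12 had 0 counts in all 4 libraries. The libraries were made from polyadenylated RNA of whole testes at postnatal day 3 from mice of mainly C57BL/6J background. By their labels, 2 libraries carry wild-type thyroid hormone receptor alpha 1 (TRα1, encoded by Thra) and 2 carry a dominant-negative TRα1, a receptor form that blocks normal receptor action. All animals came from crosses of AmhCre mice with carriers of a single copy of the TRαAMI allele. AmhCre drives Cre recombinase from the promoter of the Sertoli cell hormone Amh, and the study's title restricts the mutation to Sertoli cells, the somatic cells that nurse germ cells. The labels do not say whether the wild-type animals carried AmhCre or an unrecombined allele, nor how many animals stand behind a library. The p-values therefore reflect just the spread among these samples, which may be technical. The groups are called wild type and mutant here, and libraries are named by group and replicate number.

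Hox genes encode homeodomain transcription factors and lie in 4 clusters, HoxA to HoxD, that arose by duplication of an ancestral cluster. Genes at the same place in different clusters form a paralogue group, and the number in a symbol gives that group. Low numbers lie at the 3′ end of a cluster and are switched on early and toward the head of the embryo, while high numbers lie at the 5′ end and are switched on later and toward the tail, in limbs and in the urogenital tract. Many adult and neonatal tissues keep the set of Hox genes of the body level at which they formed, so that the set serves as a positional code. Hoxa10 and Hoxa11 act in the descent of the testis and in the patterning of the reproductive ducts, and Hoxd13 and Hoxa13 act in the external genitalia and the digits.

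Gene counts per library ranged from 10230512 to 15636832. A list of 15 skeletal muscle markers, which whole testis should hold little of, summed to 112 CPM (counts per 1000000 gene counts of a library) in wild-type replicate 1, 86.1 in wild-type replicate 2, 3010 in mutant replicate 1 and 826 in mutant replicate 2. All 15 members were tested and 10 were called higher in mutant by edgeR, 13 by DESeq2 and 1 by limma voom. Of all tested genes edgeR called 3.15% higher. Most of the wild-type sums was Des, at 87.3 and 63.8 CPM, which is also listed here as a marker of peritubular and smooth muscle. The muscle factor Myog was at 0 in both wild-type libraries and had 235 and 31 counts in mutant replicates 1 and 2. Both mutant libraries were thus above both wild-type libraries in muscle transcripts, and mutant replicate 1 was above mutant replicate 2. All 10 Sertoli cell markers were detected in each library, Amh among them. By edgeR 2 of the 10 were called lower (Cldn11 and Aard), where 2.52% of all tested genes were. The 10 markers summed to 6180 and 6760 CPM in wild type and to 5250 CPM in both mutant libraries.

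Wild-type testes read the middle and the start of the posterior part of the code. Levels are compared between genes as CPM per kilobase of annotated exon. Hoxd9 was highest, at 34.1 and 42.8 per kilobase in wild-type replicates 1 and 2, followed by its neighbour Hoxd8 at 19.4 and 21.7. Hoxb9 came next at 11.1 and 10.2, then Hoxc8 at 9.80 and 6.95 and Hoxd10 at 6.37 and 8.65. The libraries of Hoxd9, Hoxd8 and Hoxb9 did not overlap each other, while the ranges of Hoxc8 and Hoxd10 did. The next genes lay close together, with means of 5.12 ± 0.0978 for Hoxd4, 4.98 ± 1.62 for Hoxc6, 4.83 ± 0.556 for Hoxb3, 4.76 ± 0.654 for Hoxb8 and 4.55 ± 0.364 for Hoxb6 per kilobase (SD, n = 2). Members of groups 8 and 9 thus led in clusters B, C and D. In cluster A no such peak was seen in wild type. There Hoxa5 led at 2.75 ± 2.11 per kilobase, and its CPM of 7.96 in wild-type replicate 1 and 2.35 in wild-type replicate 2 differed 3.4-fold. Hoxb1 and Hoxd1 were near the bottom, with 0.128 per kilobase for Hoxb1 and 0.246 for Hoxd1, and Hoxa13 was read by 1 count in mutant replicate 2 and by 0 in the other libraries. Exon lengths come from an annotation of the same genome build and may differ from the one used for counting. The length of Hoxa3 joins 2 annotated genes of that name.

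**Figure D1:**
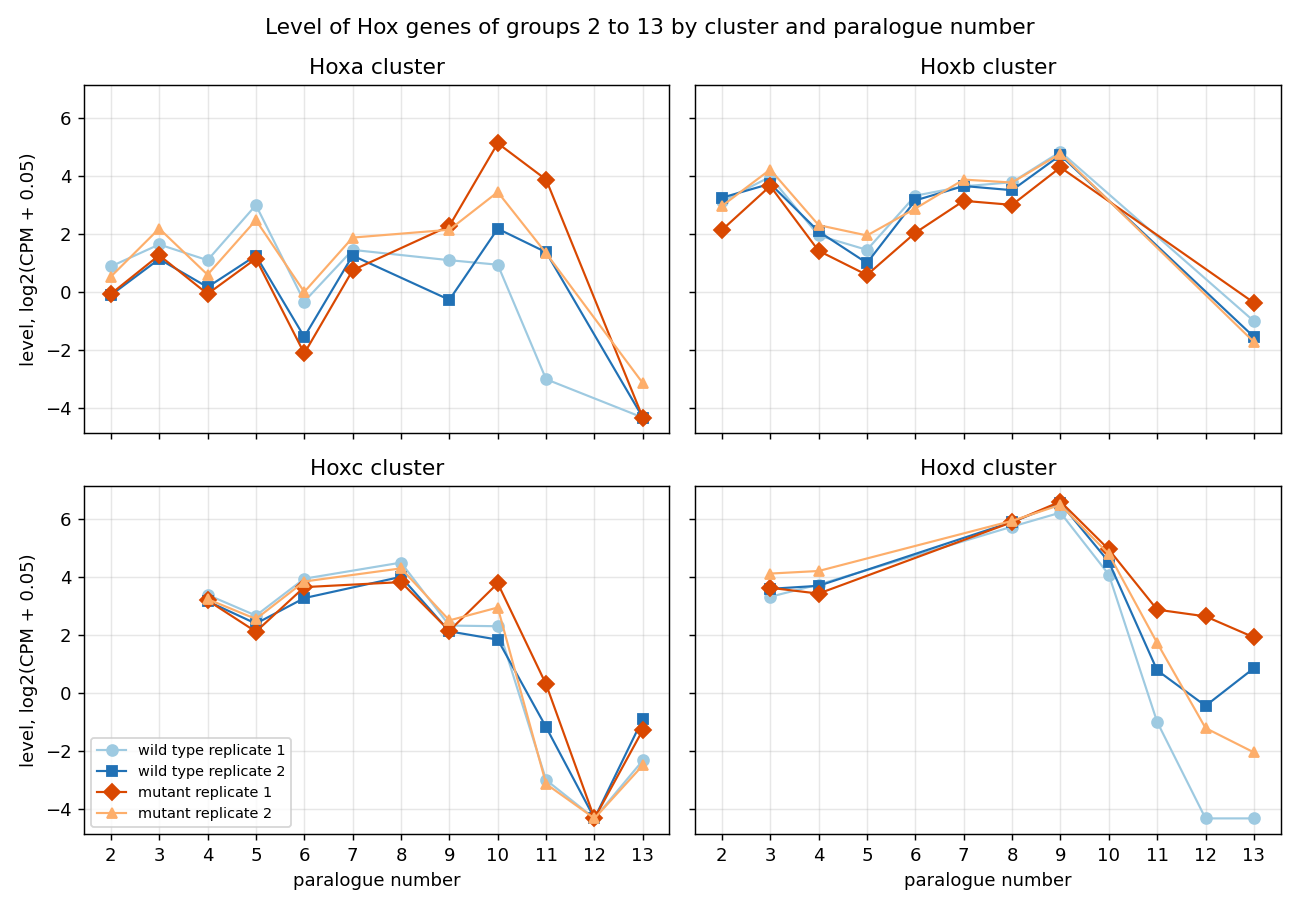
Level of each Hox gene of groups 2 to 13, as log2 of CPM plus 0.05 on the vertical axis, against paralogue number in the 4 clusters, with a line for each library. The lines run near each other in groups 8 and 9 of cluster D and spread out beyond, with mutant replicate 1 highest and wild-type replicate 1 lowest in groups 10 and 11 of clusters A and D.

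Summed over a cluster, HoxD was most abundant, with 169, 205, 227 and 219 CPM. This and each later run of 4 values gives wild-type replicate 1, wild-type replicate 2, mutant replicate 1 and mutant replicate 2, in that order. HoxB had 96.6, 88.9, 62.4 and 98.8 CPM, and mutant replicate 1 was low. HoxC had 64.6, 48.4, 59.6 and 62.6 CPM, and the groups overlapped. HoxA, the least abundant in wild type, had 22.8, 17.2, 63.1 and 36.0 CPM, with both mutant libraries above both wild-type libraries and a log2 ratio of group means of 1.31. That ratio was 0.85 without mutant replicate 1. It rested on Hoxa10 and Hoxa11. Groups 10 to 13 of HoxA summed to 1.95, 7.06, 49.9 and 13.4 CPM, while groups 1 to 9 of HoxA summed to 20.8, 10.1, 13.2 and 22.6 CPM, with overlapping genotypes. All Hox genes together summed to 353, 360, 412 and 416 CPM. No test is given for these sums, because an exact permutation test of 2 against 2 cannot give a p below 0.333.

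The make-up of the Hox counts was weighted toward high paralogue numbers in mutant replicate 1. Groups 10 to 13, a class drawn after the values were seen, held 7.05% of all Hox counts in wild-type replicate 1 (95% Wilson interval 6.35 to 7.82), 10.8% in wild-type replicate 2 (9.83 to 11.8), 27.6% in mutant replicate 1 (26.3 to 28.9) and 12.7% in mutant replicate 2 (12 to 13.6). The intervals cover counting error only. Both mutant libraries were above both wild-type libraries, but mutant replicate 2 lay much nearer to wild-type replicate 2 than to mutant replicate 1. Groups 11 to 13 alone held 0.341%, 2.18%, 8.30% and 1.64%, so that here mutant replicate 2 fell between the wild-type libraries. Group 9 held similar shares, with 31.2%, 34.7%, 30.5% and 30.5%. Groups 4 to 8 took 50.3%, 43.7%, 33.9% and 44.4%, and groups 1 to 3 took 11.4%, 10.8%, 7.99% and 12.3%. These shares are taken within a library and do not depend on how libraries are scaled to each other.

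**Figure D2:**
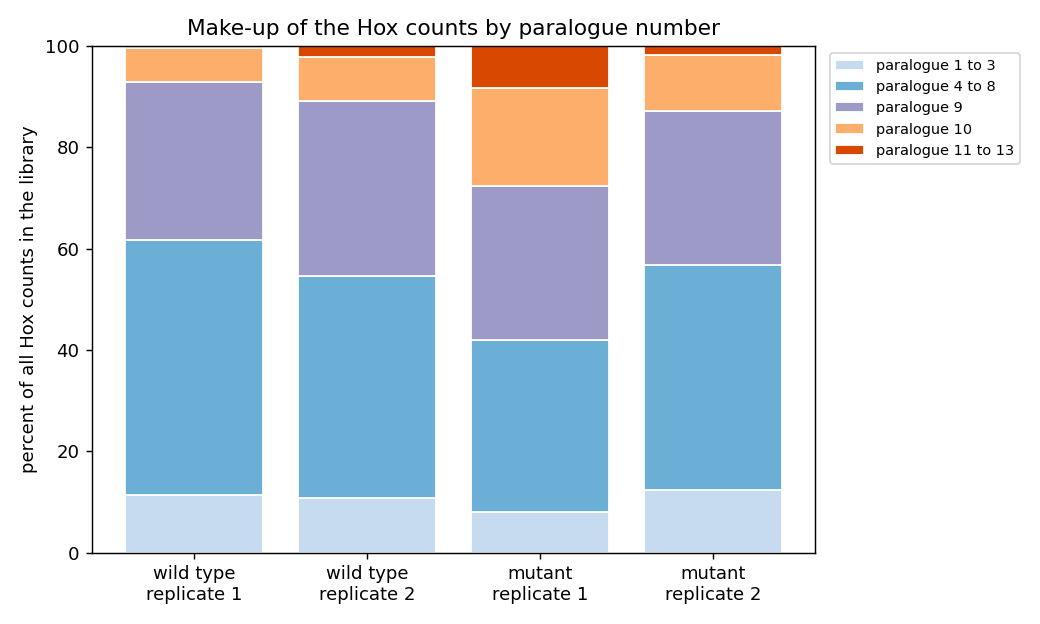
Share of all Hox counts of a library, in percent, taken by paralogue groups 1 to 3, 4 to 8, 9, 10 and 11 to 13, with a bar for each of the 4 libraries. Groups 10 to 13 take 27.6% in mutant replicate 1 and 7.05% to 12.7% in the other 3.

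Across all tested genes, log2 CPM with a prior count of 2 added correlated at 0.985 to 0.988 within a group and at 0.952 to 0.971 between groups. Over the 28 tested Hox genes with a count in every library the order was another one. The Hox values were taken without a prior count, so genes with few counts weigh more in them. Their sizes are therefore not comparable with those over all genes. The highest correlation was 0.949, between wild-type replicate 2 and mutant replicate 2, and the lowest was 0.443, between wild-type replicate 1 and mutant replicate 1. The wild-type pair stood at 0.802 and the mutant pair at 0.850. These values describe 4 libraries across genes that share clusters and are not independent. By this measure the Hox profiles did not sort by genotype.

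Hoxa10 was the Hox gene called between genotypes (chromosome 6, 52181196 to 52190853, minus strand, mm9). Wild-type replicates 1 and 2 held 1.88 and 4.51 CPM of Hoxa10, and mutant replicates 1 and 2 held 35.1 and 10.9 CPM. Both mutant libraries were above both wild-type libraries, and mutant replicate 1 held 3.24 times the level of mutant replicate 2 (95% counting interval 2.70 to 3.90). The log2 fold change was 2.86 ± 0.63 (SE), a 7.27-fold rise, with an adjusted p of 0.0404 by edgeR's quasi-likelihood test, and DESeq2 gave the same log2 fold change with an adjusted p of 0.0499. The call was lost by limma voom (2.66, adjusted p = 0.101), with no filter on low counts (adjusted p = 0.0608) and when either wild-type library was left out, with a log2 fold change of 2.30 without replicate 1 (adjusted p = 0.21) and of 3.56 without replicate 2 (adjusted p = 0.121). Without mutant replicate 1 it held at a log2 fold change of 1.82 (adjusted p = 0.00082). Over the alternatives the adjusted p of Hoxa10 ran from 1.16e-09 to 0.21, and the smallest came from a fit in which mutant replicate 1 was the lone mutant library. In bulk tissue a difference in the number of cells of a type and a difference in RNA per cell cannot be told apart. The muscle marker sums of 3010 and 826 CPM stand in the same order as Hoxa10 in the mutant libraries. In wild type Hoxa10 was 2.40-fold higher in replicate 2 (interval 1.45 to 4.08), where the muscle marker sum was lower. Most of the wild-type sums was Des, at 87.3 and 63.8 CPM, also listed as a smooth muscle marker. The part of muscle RNA in the rise was not tested.

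By that test 1 of 29 tested Hox genes, 3.45%, was called higher, where 3.15% of all 14788 tested genes were called higher and 5.67% in either direction. The share of Hox genes called is near this background. No Hox gene was called lower by edgeR, where 2.52% of all genes were. Among Hox genes 1 was lower at an unadjusted p below 0.05, and DESeq2 and limma voom called 0 lower. At that threshold 6 of the 29 Hox genes were higher, where 12.9% of all tested genes were higher and 12.6% were lower. The count of calls depended on the tool and on single libraries. DESeq2 called 3 Hox genes higher (Hoxa10, Hoxc10 and Hoxd11) and limma voom 0. The edgeR test called 0 without wild-type replicate 1, 0 without wild-type replicate 2, 3 higher without mutant replicate 1 (Hoxa9, Hoxa10 and Hoxd11), and 7 higher and 1 lower without mutant replicate 2. The 2 genotypes did not overlap in 8 of 29 tested Hox genes, 27.6%, against 57.3% of all tested genes. The median log2 fold change of the tested Hox genes was 0.12, beside -0.006 over all tested genes, and it was -0.17 without mutant replicate 2.

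**Figure D3:**
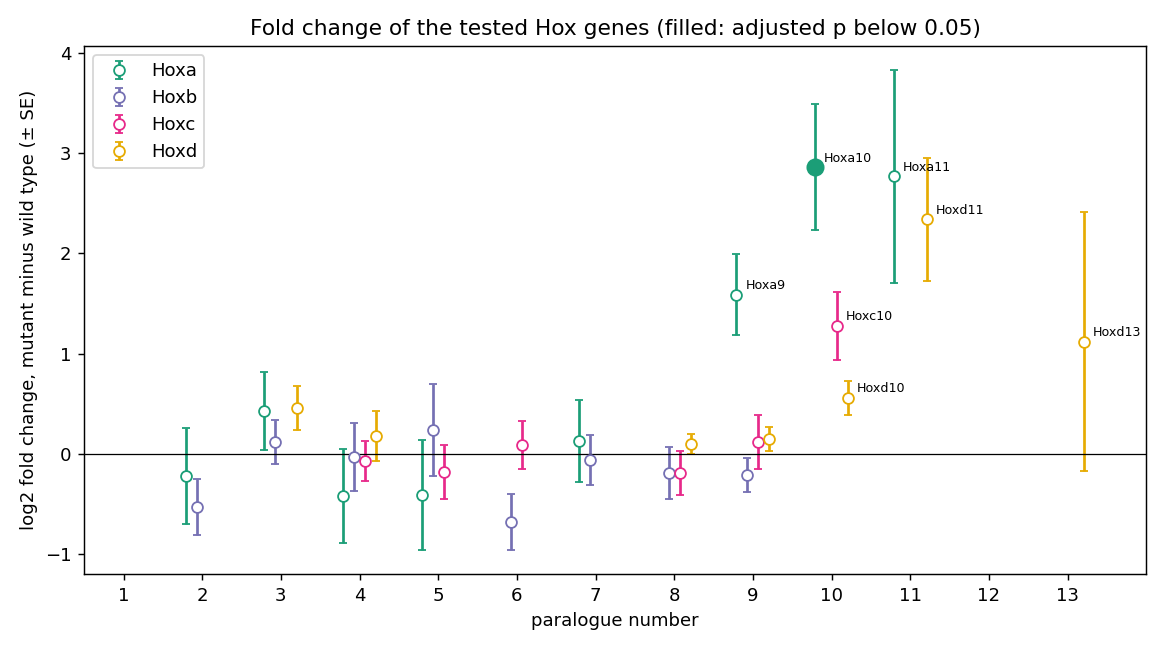
Log2 fold change, mutant minus wild type, with its standard error, of the 29 tested Hox genes against paralogue number, coloured by cluster. The filled point, Hoxa10, passed the threshold, and values from group 10 on lie between 0.56 and 2.86 while those below group 9 lie between -0.68 and 0.46.

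Hoxc10, Hoxd10 and Hoxd11 had mutant libraries above the wild-type ones but did not pass the threshold by edgeR. Hoxd11, which patterns the forearm, the kidney and the sacral spine together with its paralogues, was read at 0.451, 1.67, 7.28 and 3.26 CPM. The mutant libraries were above the wild-type ones, and the log2 fold change was 2.34 ± 0.61 (adjusted p = 0.0631). Hoxc10, a gene of the lumbar level and hindlimb, was read at 4.88, 3.53, 13.7 and 7.66 CPM, again apart by group, with a log2 fold change of 1.28 ± 0.34 (adjusted p = 0.0662). DESeq2 put both past the threshold, with adjusted p values of 0.0104 for Hoxd11 and 0.0174 for Hoxc10, and limma voom did not (0.0821 and 0.0954). By edgeR the log2 fold change of Hoxd11 was 1.58 without wild-type replicate 1 (adjusted p = 0.275), 3.45 without wild-type replicate 2 (0.118), 1.71 without mutant replicate 1 (0.0392) and 2.87 without mutant replicate 2 (0.000105). That of Hoxc10 was 0.84 without mutant replicate 1 (adjusted p = 0.152) and 1.68 without mutant replicate 2 (0.000484), and it did not pass without either wild-type library (0.175 and 0.219). Hoxd10 was read at 16.9, 22.9, 30.8 and 27.6 CPM, with a log2 fold change of 0.56 ± 0.17 (adjusted p = 0.0924). Here the mutant libraries were close to each other, and mutant replicate 1 exceeded mutant replicate 2 by a count ratio of 1.11 (0.962 to 1.29), within counting error. Among the 3 members of group 10 the fold change thus ran from 1.47 for Hoxd10 through 2.43 for Hoxc10 to 7.27 for Hoxa10, and their wild-type means ran the other way, from 7.51 per kilobase for Hoxd10 through 2.20 for Hoxc10 to 0.832 for Hoxa10. The wild-type level is also the base of the fold change, so these orders are not independent. Differences between these fold changes were not tested.

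In Hoxa11, Hoxd12 and Hoxd13 the libraries did not follow the genotype labels. Hoxa11, needed for testis descent and uterine development, was read at 0.0751, 2.55, 14.7 and 2.49 CPM, so that wild-type replicate 2 and mutant replicate 2 were alike. Its log2 fold change was 2.77 ± 1.06 (adjusted p = 0.153). It was 1.09 without mutant replicate 1, 3.65 without mutant replicate 2 and 6.56 without wild-type replicate 2. With a replicate block edgeR called Hoxa11 higher (2.74, adjusted p = 0.00919). Within wild type, Hoxa11 had 1 count in replicate 1 and 26 in replicate 2, a ratio of 33.9 after scaling (5.57 to 1390). Hoxd13 had 0, 18, 41 and 3 counts, which is 0, 1.76, 3.73 and 0.192 CPM. A count of 0 in wild-type replicate 1 allows up to 0.225 CPM. The log2 fold change of Hoxd13 was 1.12 ± 1.29 (adjusted p = 0.628), and it turned to -1.96 without mutant replicate 1 and to -0.06 without wild-type replicate 1. Hoxd12, which did not pass the filter, had 0, 7, 68 and 6 counts, or 0, 0.686, 6.19 and 0.383 CPM. Over the groups this is a count ratio of 9.33 (4.31 to 24.0), which was 1.29 without mutant replicate 1 and 4.05 without wild-type replicate 1. In these 3 genes mutant replicate 1 was highest, wild-type replicate 1 was at or near 0, and mutant replicate 2 was level with wild-type replicate 2 (Hoxa11) or below it (Hoxd12 and Hoxd13). The muscle marker sums of these 2 libraries were 826 and 86.1 CPM, and the part of muscle RNA in the values of these 3 genes was not tested. Hoxc11 had 1, 4, 13 and 1 counts, a ratio of 2.47 (0.841 to 8.76) that includes no difference and was 0.30 without mutant replicate 1. Of the remaining members of groups 12 and 13, Hoxc13 had 2, 5, 4 and 2 counts, Hoxb13 had 6, 3, 8 and 4 counts (ratio 1.18, 0.455 to 3.16), and Hoxa13 and Hoxc12 were at the floor. No statement on a difference can be made for them at this depth.

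**Figure D4:**
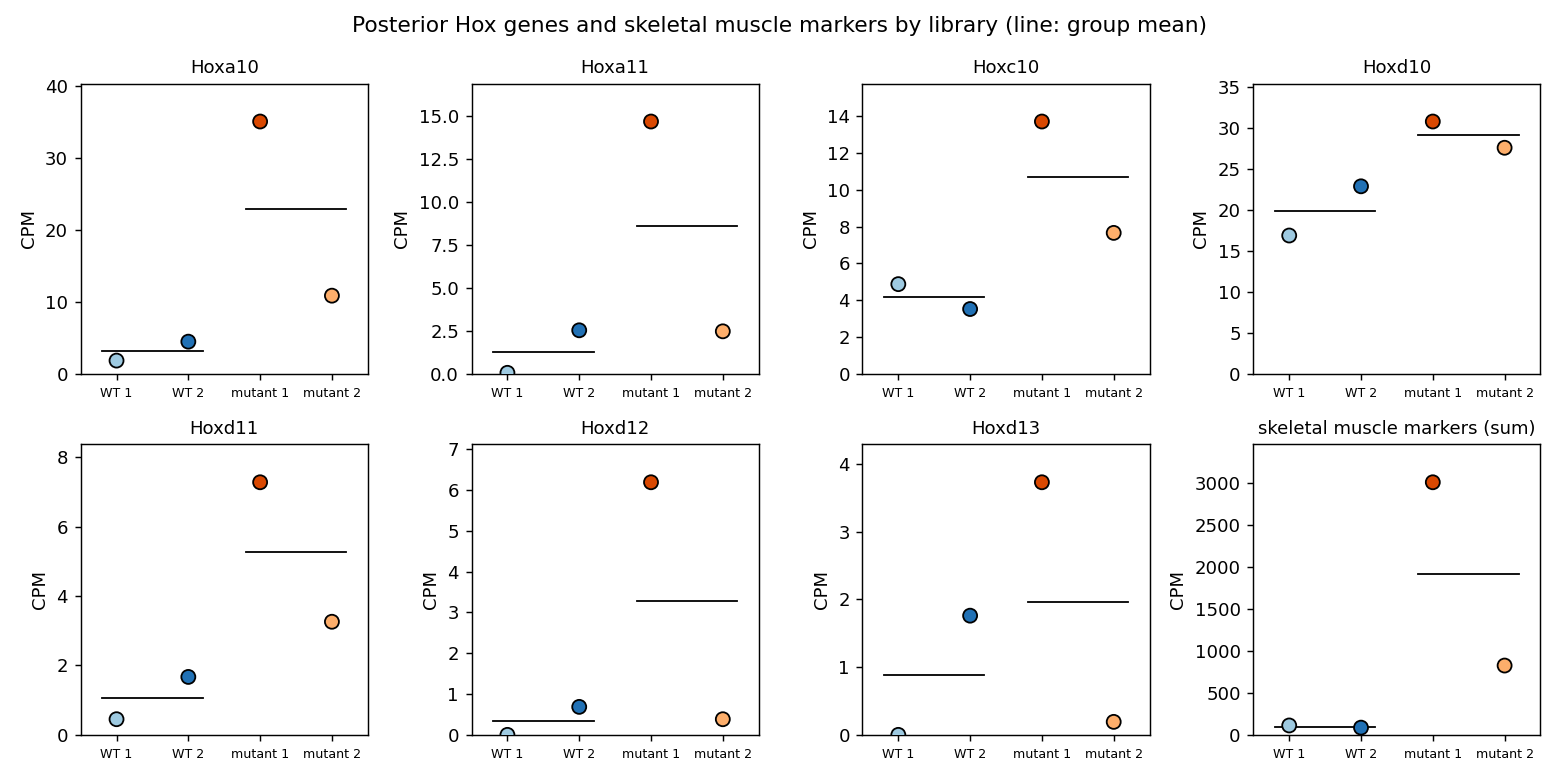
CPM of 7 posterior Hox genes and the summed CPM of 15 skeletal muscle markers in each of the 4 libraries, with lines at the group means and axes that start at 0. Mutant replicate 1 is highest in each panel, while mutant replicate 2 lies level with wild-type replicate 2 for Hoxa11, below it for Hoxd12 and Hoxd13 and above it for the muscle markers.

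Promoters of posterior and central members are shown because these genes differ in how their libraries vary, and because the study concerns a nuclear receptor whose half-site is the hexamer AGGTCA. The RefSeq table of promoters (GRCm38.p6) matched 22 of 39 Hox genes in 24 windows. The 250 bases before the start site are printed 5′ to 3′ on the gene's strand, and capitals mark AGGTCA or its reverse complement. Hoxa10 has 2 windows, of which the one nearer to Hoxa9 is printed. The windows are chr6:52234940-52235189 for Hoxa10 and chr6:52245811-52246060 for Hoxa11 on the minus strand, and chr2:74674763-74675012 for Hoxd12, chr2:74691641-74691890 for Hoxd10 and chr2:74704365-74704614 for Hoxd8 on the plus strand.
Hoxa10: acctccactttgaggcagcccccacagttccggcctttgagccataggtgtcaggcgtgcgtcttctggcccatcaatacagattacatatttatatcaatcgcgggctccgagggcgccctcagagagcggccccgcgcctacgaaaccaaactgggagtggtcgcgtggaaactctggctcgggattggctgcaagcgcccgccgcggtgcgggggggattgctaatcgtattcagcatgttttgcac
Hoxa11: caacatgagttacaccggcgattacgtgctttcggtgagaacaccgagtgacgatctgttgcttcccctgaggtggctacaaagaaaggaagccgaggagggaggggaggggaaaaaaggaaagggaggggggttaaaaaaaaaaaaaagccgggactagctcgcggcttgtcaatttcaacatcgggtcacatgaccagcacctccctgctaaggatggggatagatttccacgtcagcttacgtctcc
Hoxd12: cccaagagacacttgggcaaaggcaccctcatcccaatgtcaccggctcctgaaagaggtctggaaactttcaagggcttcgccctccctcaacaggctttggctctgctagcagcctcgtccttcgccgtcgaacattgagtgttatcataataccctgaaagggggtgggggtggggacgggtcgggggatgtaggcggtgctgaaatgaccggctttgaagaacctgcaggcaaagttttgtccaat
Hoxd10: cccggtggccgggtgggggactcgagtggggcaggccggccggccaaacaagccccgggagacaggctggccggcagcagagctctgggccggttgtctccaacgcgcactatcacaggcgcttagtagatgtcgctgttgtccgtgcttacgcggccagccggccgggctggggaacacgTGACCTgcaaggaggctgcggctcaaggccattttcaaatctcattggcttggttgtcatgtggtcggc
Hoxd8: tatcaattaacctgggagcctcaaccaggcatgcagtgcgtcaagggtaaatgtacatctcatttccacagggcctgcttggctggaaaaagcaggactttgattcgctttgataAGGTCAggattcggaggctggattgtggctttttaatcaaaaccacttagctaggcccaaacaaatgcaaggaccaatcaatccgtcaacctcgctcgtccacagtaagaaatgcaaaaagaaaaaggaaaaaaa

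The hexamer AGGTCA, searched on both strands, was found in 6 of the 24 Hox windows, 25%, and in 14% of all 32851 promoter windows of that length. The 6 genes are Hoxb4, Hoxc4, Hoxd3, Hoxd4, Hoxd8 and Hoxd10. Of these, Hoxd10 had the largest log2 fold change, at 0.56, and the other 5 lay between -0.07 and 0.46. The hexamer was in neither window of Hoxa10, nor in those of Hoxa11, Hoxd11, Hoxd12 and Hoxd13, which says only that these letters are not in these windows. The pentamer TTTAT or its reverse complement, letters found in sites of Cdx and posterior Hox proteins and also in TATA boxes, was in 37.5% of Hox windows and in 37.3% of all windows. Hox windows held a median of 12.5 CG pairs against 6 over all windows. Among the printed windows the CG count was 20 for Hoxa10, 13 for Hoxa11, 10 for Hoxd12, 20 for Hoxd10 and 6 for Hoxd8.

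In group 9 the genotypes did not overlap for Hoxa9 and overlapped for its 3 paralogues. Hoxa9, which lies next to Hoxa10 and shares exon sequence with a transcript that overlaps it, was read at 2.10, 0.784, 4.82 and 4.40 CPM. The mutant libraries differed by less than counting error (ratio 1.09, 0.751 to 1.59) and both were above the wild-type ones, with a log2 fold change of 1.59 ± 0.40 and an adjusted p of 0.0581. It passed without either mutant library, at 1.53 without replicate 1 (adjusted p = 0.033) and at 1.66 without replicate 2 (adjusted p = 0.0217), and it did not pass without wild-type replicate 1 (2.53, adjusted p = 0.108) or without wild-type replicate 2 (1.12, adjusted p = 0.179). Hoxd9, which acts with Hoxa9 in limb and spine, was read at 74.4, 93.4, 96.9 and 89.6 CPM, Hoxb9 at 28.6, 26.4, 19.7 and 27.4 CPM, and Hoxc9 at 4.96, 4.31, 4.37 and 5.62 CPM. In all 3 the groups overlapped, with log2 fold changes of 0.15 ± 0.12, -0.21 ± 0.17 and 0.12 ± 0.27 and adjusted p values of 0.46, 0.482 and 0.82.

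Of the 15 central genes, groups 4 to 8, 14 were tested, none was called by edgeR in either direction, and their median log2 fold change was -0.07. The steadiest was Hoxd8 at 53.2, 59.5, 59.2 and 61.1 CPM (log2 fold change 0.10 ± 0.10, adjusted p = 0.592). Hoxc4 was read at 10.4, 8.92, 9.10 and 9.38 CPM and Hoxc6 at 15.3, 9.61, 12.5 and 14.3 CPM, both without a call. Hoxc8, a gene of the thoracic level, was read at 22.5, 16, 14.1 and 19.6 CPM (log2 fold change -0.19 ± 0.22, adjusted p = 0.638). Several genes of cluster B were low in mutant replicate 1. Hoxb6 was read at 9.99, 8.92, 4.09 and 7.34 CPM, the member with the smallest p among those with a negative fold change (-0.68 ± 0.28, unadjusted p = 0.0418, adjusted p = 0.18). Hoxb7, at 12.5, 12.6, 8.83 and 14.7 CPM, had mutant libraries on both sides of the wild-type ones. From Hoxb2 to Hoxb9 all 8 genes were lower in mutant replicate 1 than in mutant replicate 2, with count ratios from 0.380 for Hoxb5 to 0.718 for Hoxb9 and intervals below 1. This was not particular to cluster B. The ratio was 0.45 for Hoxa7 (0.249 to 0.776), 0.72 for Hoxc8 (0.589 to 0.876) and 0.582 for Hoxd4 (0.466 to 0.723). For Hoxc4 (0.97, 0.744 to 1.26) and Hoxd8 (0.97, 0.876 to 1.07) the interval included 1. Hoxa5, which acts in lung and thoracic patterning, was read at 7.96, 2.35, 2.18 and 5.55 CPM, so that each group held a high and a low library. Hoxa4, also of the central part, showed the same order, with 2.10, 1.08, 0.910 and 1.47 CPM. Its replicates differed within counting error, with a ratio of 0.513 (0.23 to 1.06) for wild-type replicate 2 over replicate 1. For mutant replicate 1 over replicate 2 the ratio was 0.62 (0.263 to 1.35).

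Of the 8 anterior genes, groups 1 to 3, 5 were tested and none was called in either direction by edgeR, DESeq2 or limma voom. Hoxb3 was the highest of them at 15.7, 13.3, 12.6 and 18.7 CPM, with overlapping groups (log2 fold change 0.12 ± 0.22, adjusted p = 0.766). Hoxd3 was read at 9.91, 12, 12.3 and 17.3 CPM, with the mutant libraries above the wild-type ones (0.46 ± 0.22, adjusted p = 0.233). Hoxb2, a gene of the hindbrain, was read at 8.71, 9.51, 4.37 and 7.79 CPM, with the mutant libraries below (-0.53 ± 0.28, adjusted p = 0.282). The summed CPM of the class was 40.3, 38.7, 32.9 and 51.1, so that the mutant libraries lay on both sides of wild type.

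Replicates of a genotype differed more in Hox genes than in tested genes at large. The median absolute log2 ratio between the wild-type libraries was 0.16 over all tested genes, 0.27 over the 23 tested Hox genes of groups 1 to 9 and 1.26 over 5 tested genes of groups 10 to 13 with counts in both. Between the mutant libraries it was 0.13, 0.63 and 1.43. These medians are descriptions, and Hox genes are read at lower counts than many tested genes.

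Genes next to the clusters and on the opposite strand were compared as well. Of the 16 nearest other protein-coding genes of the table, 2 on each side of each cluster, 12 were tested, and none was called by edgeR, DESeq2 or limma voom. At an unadjusted p below 0.05, 1 was higher and 2 were lower, where 12.9% of all tested genes were higher and 12.6% were lower. The median log2 fold change of the 12 was -0.12. The homeobox genes Evx1 and Evx2, which adjoin the posterior ends of HoxA and HoxD, had 1 count and 0 counts over all libraries. Hoxa11as, an antisense RNA that overlaps an exon of Hoxa11, was read at 0.150, 1.18, 4.91 and 1.79 CPM (log2 fold change 2.37 ± 0.78, adjusted p = 0.108). This is the order of wild-type replicate 1 lowest and mutant replicate 1 highest seen in Hoxa11. Without a known strand setting, reads of Hoxa11 and Hoxa11as cannot be told apart. Exons of Hoxb7 and Hoxb8, of Hoxd3 and Hoxd4, and of Hoxa2 and Hoxa3 overlap on the same strand. So do exons of Hoxd10 and Hoxd11 with Gm20440, and of Hoxc5 and Hoxc10 with Gm20398. The counts of all these genes are uncertain.

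TALE homeodomain proteins bind DNA together with Hox proteins. Of 9 genes of this family, 3 rose and none fell by edgeR, beside backgrounds of 3.15% higher and 2.52% lower. DESeq2 and limma voom each called 2 higher and 0 lower. At an unadjusted p below 0.05, 5 were higher and 0 were lower, beside 12.9% and 12.6% of all tested genes. Values are given for 2 of the 3 genes called by edgeR. Pbx3, a partner of many Hox proteins, was read at 22.2, 22.6, 39.0 and 32.8 CPM (log2 fold change 0.68 ± 0.14, adjusted p = 0.0331). Meis2, a partner in limb and other mesenchyme, was read at 15.5, 17.4, 61.0 and 28.5 CPM (1.43 ± 0.32, adjusted p = 0.044), with mutant replicate 1 far above mutant replicate 2, as in Hoxa10. In both the mutant libraries were above the wild-type ones. When either wild-type library was left out neither was called. Without mutant replicate 1 Meis2 was called (0.80, adjusted p = 0.0178) and Pbx3 was not (0.55, adjusted p = 0.10), and DESeq2 and limma voom did not call Meis2 (adjusted p = 0.0869 and 0.0851).

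Polycomb proteins keep Hox clusters silent and trithorax proteins keep them active. Of 28 chromatin regulators of Hox clusters, which include other factors such as Ctcf and Rad21, none was called by edgeR, DESeq2 or limma voom. The median log2 fold change was 0.00. By edgeR 0 were higher and 4 were lower at an unadjusted p below 0.05, where 12.9% of all tested genes were higher and 12.6% were lower. The smallest p values belonged to the Polycomb gene Cbx7, at 12.4, 12.1, 7.01 and 8.87 CPM (-0.61 ± 0.20, adjusted p = 0.115), and to Wdr5, a subunit of histone methyltransferases, at 192, 171, 158 and 149 CPM (-0.24 ± 0.09, adjusted p = 0.145). Retinoic acid switches on Hox genes from the 3′ end. Of 12 genes of its synthesis, breakdown and reception 11 were tested and none was called by edgeR. DESeq2 called 1 higher and 1 lower, and limma voom called 0. At an unadjusted p below 0.05 edgeR had 3 higher and 1 lower, beside the same 12.9% and 12.6% of all tested genes. The binding protein gene Crabp1 was read at 17.0, 11.7, 8.55 and 5.87 CPM (-1.04 ± 0.27, adjusted p = 0.0605), and Aldh1a2, a retinoic acid synthesis gene, at 66.7, 52.2, 92.0 and 77.9 CPM (0.51 ± 0.14, adjusted p = 0.0669).

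Of 24 other regional homeobox, paired box and T-box genes 12 were tested. By edgeR 1 rose and none fell, beside 3.15% higher and 2.52% lower over all tested genes. At an unadjusted p below 0.05, 4 were higher and 1 was lower, beside 12.9% and 12.6% of all tested genes. DESeq2 and limma voom each called 1 higher and 0 lower. Lhx9, a factor of the early gonad and of limb mesenchyme, rose from 48.2 and 46.0 to 82.0 and 68.9 CPM (log2 fold change 0.68 ± 0.11, adjusted p = 0.0212), a call that was lost when either wild-type library was left out (adjusted p = 0.105 without replicate 1 and 0.093 without replicate 2). Named after their values were seen, the hindlimb factors Pitx1 and Tbx4 had 4, 3, 42 and 5 counts and 5, 3, 12 and 22 counts, and the forelimb factor Tbx5 had 1 count, in wild-type replicate 2. Pitx1 was thus high in mutant replicate 1 alone, as was Hoxd12, while Tbx4 was higher in both mutant libraries (1.87 ± 0.53, adjusted p = 0.0766). Cdx2, which acts upstream of posterior Hox genes in the embryo, had 0 counts in all libraries.

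Some marker lists of other cell types also moved with the groups. Calls here are by edgeR unless stated, which called 3.15% of all tested genes higher and 2.52% lower. Of 7 mesothelial markers 4 were called higher, with sums of 396, 395, 566 and 661 CPM. Of 6 macrophage and leukocyte markers 3 were called higher, with sums of 114, 126, 181 and 236 CPM. In both lists mutant replicate 2 was the highest library, where in Hoxa10, Hoxc10 and Hoxd11 it was mutant replicate 1. Germ cell markers were called lower in 9 of 10 (825, 554, 309 and 269 CPM) and adipocyte markers in 4 of 5 tested (74.8, 82.9, 27.2 and 26.6 CPM). Of 8 tested markers of rete and mesonephric duct 1, Wfdc10, was called lower. That list summed to 268, 324, 151 and 181 CPM, with Lcn9 at 0 in all libraries. Of 8 interstitial fibroblast markers 0 were called by edgeR, 2 higher by DESeq2 and 0 by limma voom. At an unadjusted p below 0.05, edgeR had 5 of them higher, beside 12.9% of all tested genes. Their sums were 9700, 6960, 11900 and 11600 CPM. By edgeR 0 of 7 Leydig cell and 0 of 6 peritubular and smooth muscle markers were called. The same held for 6 tested nerve and Schwann cell markers and 5 endothelial markers. The part of any of these cell types in the Hox values was not tested.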

How the data were processed

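Gene counts of 4 libraries of whole testis, 2 wild type and 2 mutant, were used. The build mm9 and the tools TopHat 1.4.0, CASAVA 1.8.1, DESeq2 and HTSeq are named, without their roles, per the submitters' processing notes. The annotation, counting mode and strandedness were not given in the sources used here. The values the authors deposited were handled as estimated counts, because percentages stand in the same columns below the genes. Each gene value is a whole number, so rounding changed nothing. Reads in no gene (13.8% to 17.3% of counted reads) and ambiguous reads (0.602% to 0.726%) were left out.

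All 22609 genes entered one fit. The quasi-likelihood test of edgeR 4.0.16 (R 4.3.3, legacy and robust options off) was run with TMM scaling, genotype as the one term and the default filter (minimum count 10, minimum total 15), which kept 14788 genes. Tests were two-sided, Benjamini-Hochberg adjustment ran over the 14788 genes, and the threshold for a call was 0.05. Fold changes are mutant over wild type, and SE is the absolute log2 fold change over the root of the F statistic. CPM use TMM-scaled library sizes. Where a group had 15 or fewer counts, or where 2 libraries are compared, the scaled count ratio is given with an exact 95% interval. A count of 0 was set against 3 counts. Intervals cover counting error only. Other settings were DESeq2 1.42.0, limma voom (3.58.1), other scalings and filters, the legacy option, a replicate block and leaving out each library. Positions and exon lengths come from GENCODE M1 (mm9), in which 39 of 39 Hox genes occur.

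The Hox genes and the gene lists were chosen with earlier results of these data known. Named Hox genes are those called, the 3 with the highest mean CPM in each cluster, those at 0 in one group with more than 3 counts in the other, and members of groups 9 to 13 with more than 15 counts. Of the other lists called genes are named, or the 2 with the smallest p. Further genes are named to account for the members. Values of some genes that these rules cover are not reported here.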

Additional observations from a re-analysis of the deposited data

How the results depend on the processing

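Of 312 values of single genes under other settings, 261 kept direction and side of the threshold or, for untested genes, stayed within the counting interval. Leaving out a library leaves a lone one, assumed to vary like the other group. It moved the calls over all genes between 34 and 818 higher and between 40 and 477 lower, those of Hox genes between 0 and 7 higher and 0 and 1 lower, those of TALE genes between 0 and 4 higher, and the Hox median between -0.17 and 0.25. Without a filter on low counts 282 genes were called higher and 219 lower, with 0 Hox genes and 1 TALE gene higher. Limma voom called 309 genes higher and 0 Hox genes, and DESeq2 called 3 Hox genes. The log2 ratio of summed CPM ran from 0.85 to 1.66 for HoxA, from -0.57 to 0.09 for HoxB, from -0.08 to 0.34 for HoxC, from 0.12 to 0.40 for HoxD, from -0.26 to 0.37 for the anterior, -0.26 to 0.14 for the central and 0.27 to 0.68 for the posterior class. Signs of single genes also changed with a library left out, with log2 fold changes from -1.30 to 0.79 for Hoxa5, -0.21 to 0.36 for Hoxb3, -0.51 to 0.23 for Hoxb7, -0.17 to 0.05 for Hoxc4, -0.19 to 0.48 for Hoxc6, -0.46 to 0.09 for Hoxc8, -0.10 to 0.27 for Hoxc9, -0.01 to 0.32 for Hoxd9 and -1.96 to 7.50 for Hoxd13. The cause was not tested. The labels give both groups replicate numbers 1 and 2 but do not say what the numbers stand for. Over all tested genes, the differences of replicate 1 from replicate 2 in the 2 groups correlated at -0.0314. Whether same-numbered libraries share a litter, day or batch was not tested. With a replicate block 3 Hox genes were called higher (Hoxa10, Hoxa11 and Hoxc10). Depth limits groups 1, 12 and 13, where most genes had under 15 counts a group.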
